A study of Homo sapiens with 6 samples.

Results

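The genes described here were 10 members of the BCL2 family, which sets whether a cell survives or dies through its mitochondria. They were chosen by gene symbol, from 23459 genes in the count table. BCL2, BCL2L1 (which encodes BCL-XL), BCL2L2 (BCL-W) and MCL1 protect cells, BAX and BAK1 carry out the killing, and BCL2L11 (BIM), BMF, BBC3 (PUMA) and PMAIP1 (NOXA) start it. All 10 had counts in at least 1 library, and 8 of them passed the filter on low counts. RNA came from MCF10A, an immortalised but untransformed human mammary epithelial cell line, and every library is described as WT. The 3 siCtrl libraries came from cells given a non-targeting control siRNA, and the 3 siYAP/TAZ libraries from cells given siRNAs against YAP1 and WWTR1 (which encodes TAZ), the coactivators at the end of the Hippo pathway. Every sample received 20 nM siRNA in the same lipid reagent and grew in medium with horse serum, insulin, hydrocortisone, cholera toxin and EGF. The time between transfection and harvest was not given in the sources used here. The labels do not say that the libraries came from separate cultures. The study's methods speak of biological replicates for its RNA sequencing in general, without describing these libraries. The p-values measure the spread between these libraries, which may be partly technical. For siCtrl replicate 2 and siYAP/TAZ replicate 2 the title names the opposite group from the description. Libraries were grouped by the description, which also heads their columns, and called results are also given without both of these libraries or without siCtrl replicate 2.

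In a living cell the anti-apoptotic proteins hold BAX and BAK1 in check at the outer mitochondrial membrane. BH3-only proteins, which are made or released under stress, occupy the groove of the anti-apoptotic proteins or engage the effectors directly. Once BAX and BAK1 form pores, cytochrome c leaves the mitochondrion and assembles with APAF1 into the apoptosome, which activates caspases. In mammary epithelium BIM and BMF are known for the death of cells that lose contact with the basement membrane and for clearing the lumen of the growing acinus.

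The libraries were 3′-end libraries, in which a transcript gives about 1 read whatever its length, so counts of different genes were set side by side without a length correction. They held 3175149 to 4317286 counts each, at which 3 counts corresponded to 0.680 to 0.992 counts per 1000000 (CPM). YAP1 was 201 ± 11.1 CPM in siCtrl and 115 ± 3.25 CPM in siYAP/TAZ (SD, n = 3 each), and WWTR1 was 106 ± 4.02 and 65.8 ± 5.44 CPM. Both targeted genes were lower in each siYAP/TAZ library than in any siCtrl library, both replicate 2 libraries included, so their levels went with the descriptions (adjusted p = 0.0138 and 0.0311, and 0.00792 and 0.0235 without both libraries of conflicting labels). The call of YAP1 was lost in 4 of 17 alternatives, at 0.0988 when siCtrl replicate 3 was dropped, at 0.0606 and 0.112 when replicate 2 or 3 of siYAP/TAZ was, and at 0.904 in the groups of the titles. That of WWTR1 was lost in 6 of 17, at 0.0602 to 0.176 without any 1 library other than siCtrl replicate 2 and at 0.905 in the groups of the titles. Between 57.5% of YAP1 and 61.8% of WWTR1 transcript was left in the knockdown. On the first principal component, however, siCtrl replicate 2 (6.98) lay nearer to siYAP/TAZ (9.18 to 32.2) than to the other siCtrl libraries (-40.7 and -33.3). All 9 basal mammary epithelial markers exceeded 3 counts in every library, with a summed level of 2117 to 2824 CPM in siCtrl and 1736 to 2026 CPM in siYAP/TAZ. Of 10 markers of other cell types, 3 exceeded 3 counts in every library and COL3A1 was at 0 throughout. The sum of those 10 was 8.90 to 17.0 CPM in siCtrl and 12.5 to 19.8 CPM in siYAP/TAZ, and its part in the results was not tested. Within that list PECAM1, an endothelial marker named after its values were seen, did not overlap between the groups. It was at 1.72, 1.23 and 1.01 CPM in the siCtrl libraries against 3.17, 9.59 and 4.90 CPM in siYAP/TAZ. Its log2 fold change was 2.10 (adjusted p = 0.0785, 0.0245 with the replicate block, and 0.00139 to 0.951 over 16 alternatives). VWF, the other endothelial marker of the list, overlapped, at 1.23 ± 0.278 CPM in siCtrl and 1.26 ± 0.147 CPM in siYAP/TAZ (SD, n = 3 each).

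Among the BH3-only genes, BCL2L11 transcript rose to 2.69 times its siCtrl level, and BMF had 1 count over the siCtrl libraries and 86 over the siYAP/TAZ libraries, nearly all of them in 2 of the 3. BBC3 and PMAIP1 did not pass the test. In bulk RNA, a change in how many cells express a gene and a change in RNA per cell cannot be told apart.

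BCL2L11 encodes BIM, a BH3-only protein that binds every anti-apoptotic member named here. The gene lies on the plus strand of chromosome 2 (chr2:111876955-111926021, hg19, the build of the count table). It was at 16.9, 25.3 and 18.1 CPM in siCtrl replicates 1 to 3 and at 48.3, 45.3 and 68.5 CPM in siYAP/TAZ replicates 1 to 3. The groups did not overlap, and the lowest siYAP/TAZ library stood well above the highest siCtrl library. The means were 20.1 ± 4.53 and 54.0 ± 12.6 CPM (SD, n = 3 each), a log2 fold change of 1.43 with a standard error of 0.23 (95% interval 0.92 to 1.93, adjusted p = 0.0168, quasi-likelihood test of edgeR, Benjamini-Hochberg over all genes). It was called in 13 of 17 alternative fits, with adjusted p from 1.21e-09 to 0.898. The lowest came from a fit added after the data were seen, and the highest from the groups of the titles. Leaving out both libraries of conflicting labels gave 0.00174. The adjusted p was 0.0602 without siCtrl replicate 1, 0.115 when siCtrl replicate 3 was dropped and 0.107 when siYAP/TAZ replicate 3 was. The exons of BCL2L11 share 727 bases with those of MIR4435-2HG, a long non-coding RNA on the opposite strand, and the sources do not say whether counting used strand. MIR4435-2HG moved the other way, from 318 ± 28.4 CPM to 111 ± 31.4 CPM (log2 fold change -1.52, standard error 0.21, adjusted p = 0.0107). Over its 17 alternatives the adjusted p ran from 8.21e-17 to 0.905, with 0.0703 when siCtrl replicate 3 was dropped and 0.00146 when both libraries of conflicting labels were.

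BMF encodes a BH3-only protein tied to the cytoskeleton through dynein light chain 2 and released when cells detach. Its gene is on the minus strand of chromosome 15 (chr15:40380091-40401093). BMF had 0, 1 and 0 counts in siCtrl replicates 1 to 3, against 45, 3 and 38 counts in siYAP/TAZ replicates 1 to 3. Replicates 1 and 3 of siYAP/TAZ stood far above siCtrl, whereas siYAP/TAZ replicate 2 was at the limit of 3 counts. As CPM these were at most 0.309 in siCtrl and 10.2, 0.992 and 10.3 in siYAP/TAZ. BMF fell below the low-count filter, so it had no test in the fit used for the other genes. Summed over the libraries, 86 siYAP/TAZ counts stood against 1 siCtrl count, a depth-scaled ratio of 82.8 with a 95% interval of 14.5 to 3308 that covers counting error only. With siYAP/TAZ replicate 2 alone, 3 counts against 1, the ratio was 10.6 (0.852 to 557), and without it 109.8 (19.2 to 4389). The two-sided exact permutation test over libraries gave p = 0.1, the smallest that 3 against 3 allows. Over all genes without the filter, edgeR's adjusted p was 0.00298. DESeq2's was 6.75e-04, and BMF passed the mean-count filter of DESeq2 only through the siYAP/TAZ libraries in which it was high. In the filtered fits with 1 library left out that tested BMF, it passed the filter only through the siYAP/TAZ libraries in which it was high. Its adjusted p there is a description, above the threshold without siCtrl replicate 1 (0.120) and without siCtrl replicate 3 (0.195). With both libraries of conflicting labels left out, 0 and 0 counts stood against 45 and 38. BMF-AS1, on the opposite strand, shares 461 exonic bases with BMF and had no row in the count table.

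The 250 bases before the annotated starts of these genes are printed because BCL2L11 and BMF stood higher in siYAP/TAZ and BCL2 stood lower (RefSeq, GRCh38.p14, each in the sense of its gene, on chr2:111120664-111120913 plus strand, chr15:40108880-40109129 and chr15:40106967-40107216 minus strand, and chr18:63319770-63320019 minus strand). Capitals mark a match to the FOXO letters TGTTTAC on either strand in BCL2L11 and to the E-box CAGGTG, which SNAI proteins bind, in the second BMF window.
BCL2L11: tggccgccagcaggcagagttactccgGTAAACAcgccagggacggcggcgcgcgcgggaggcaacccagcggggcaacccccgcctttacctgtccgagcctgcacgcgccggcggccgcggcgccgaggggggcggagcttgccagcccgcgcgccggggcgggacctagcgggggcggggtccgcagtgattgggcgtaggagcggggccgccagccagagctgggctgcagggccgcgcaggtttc
BMF first start: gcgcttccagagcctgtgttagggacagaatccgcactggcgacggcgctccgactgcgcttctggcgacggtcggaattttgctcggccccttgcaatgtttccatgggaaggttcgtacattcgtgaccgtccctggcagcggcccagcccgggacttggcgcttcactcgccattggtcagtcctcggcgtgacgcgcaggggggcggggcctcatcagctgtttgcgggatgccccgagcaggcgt
BMF second start: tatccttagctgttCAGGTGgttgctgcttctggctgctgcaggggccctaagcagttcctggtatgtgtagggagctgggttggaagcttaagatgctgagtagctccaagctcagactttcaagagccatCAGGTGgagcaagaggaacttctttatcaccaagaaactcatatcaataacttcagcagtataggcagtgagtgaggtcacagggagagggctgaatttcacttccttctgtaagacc
BCL2: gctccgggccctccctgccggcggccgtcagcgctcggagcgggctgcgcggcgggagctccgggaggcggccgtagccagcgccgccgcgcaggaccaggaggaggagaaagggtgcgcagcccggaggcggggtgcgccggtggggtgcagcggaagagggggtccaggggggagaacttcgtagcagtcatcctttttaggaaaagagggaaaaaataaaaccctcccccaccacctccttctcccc
RefSeq held such windows for 8 of the 10 members, 10 windows in all. The TEAD letters CATTCC, through which YAP and TAZ reach DNA, were in 0 of the 10 windows and in 11.9% of all 35116 promoter windows of this length. The FOXO letters were in BCL2L11 alone among the members and in 2.98% of all windows. The E-box was in BMF and BAX and in 17.5% of all windows, and the AP-1 letters TGANTCA were in BBC3 and in 6.57%. Each motif was searched on both strands. These are matches of letters and no binding was measured.

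BBC3 encodes PUMA, a BH3-only protein best known as a target of p53. The gene is on the minus strand of chromosome 19 (chr19:47724079-47736023). Its level was 52.6, 178 and 71.1 CPM in siCtrl replicates 1 to 3 and 65.5, 117 and 103 CPM in siYAP/TAZ replicates 1 to 3. The groups overlapped, and siCtrl replicate 2 was the highest of all 6 libraries. The log2 fold change was -0.08 with a standard error of 0.40 (95% interval -0.98 to 0.83, adjusted p = 0.939). Without siCtrl replicate 2 the direction turned, to 0.62 (adjusted p = 0.119, and 0.0228 when the low-count filter was dropped as well). It also turned with the replicate block, the groups of the titles, both libraries of conflicting labels left out, or siYAP/TAZ replicate 1 left out. Its adjusted p ran from 0.0228 to 0.975 over the 17 alternatives. The antisense microRNA gene MIR3191 was at 0 in every library.

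PMAIP1 encodes NOXA, a BH3-only protein that binds MCL1 and promotes its breakdown (chr18:57567228-57571537, plus strand). It was at 39.6, 24.1 and 19.3 CPM in the siCtrl libraries against 22.2, 18.5 and 13.9 CPM in siYAP/TAZ. Each siYAP/TAZ library was below the siCtrl library of the same number, but the groups overlapped. Its log2 fold change was -0.60 with a standard error of 0.29 (95% interval -1.26 to 0.06, adjusted p = 0.328), and 0 of 17 alternatives called it.

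**Figure D1:**
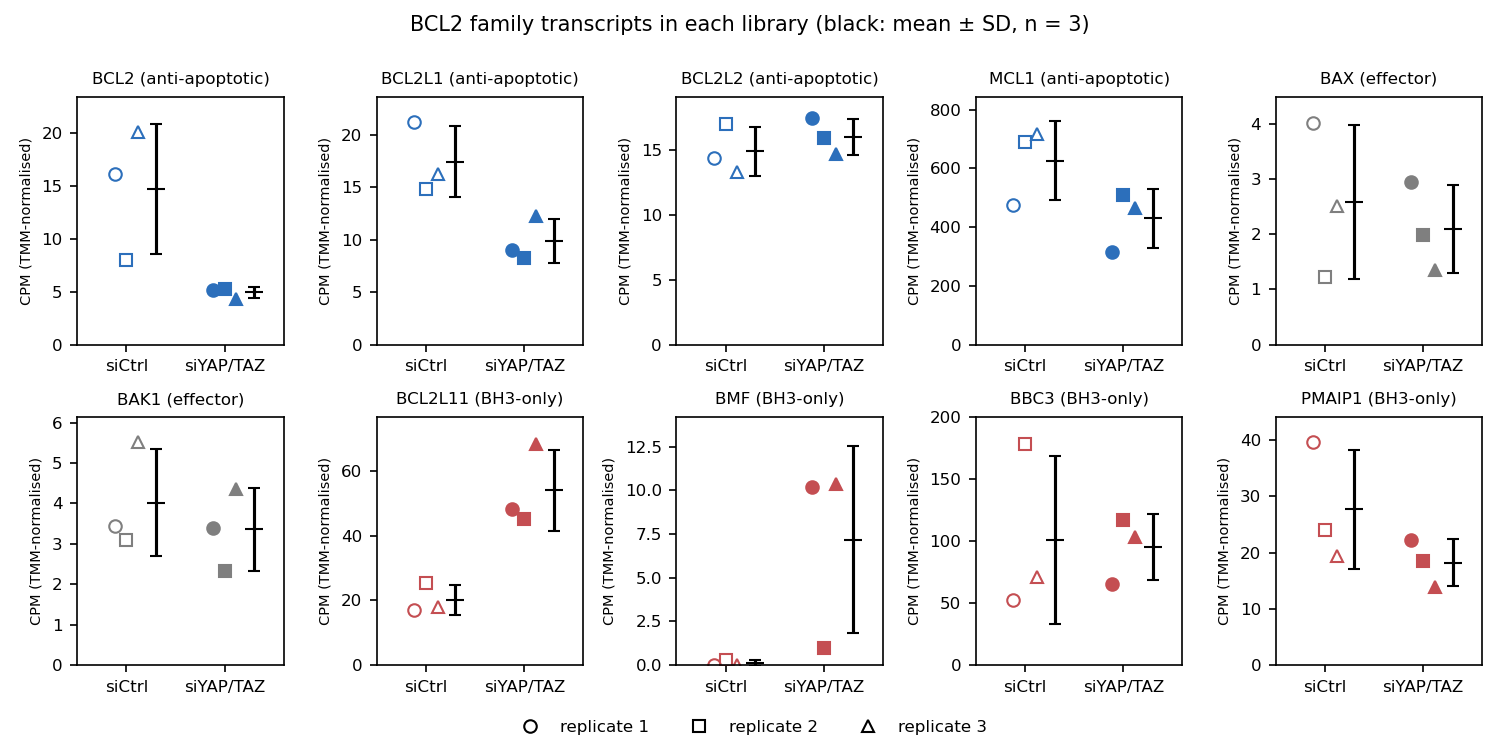
Level of each of the 10 genes in counts per 1000000 (CPM, linear axis from 0) in the 3 siCtrl libraries (open symbols) and the 3 siYAP/TAZ libraries (filled symbols). Black bars show the mean ± SD, n = 3, and the shape gives the replicate number. The groups do not overlap for BCL2, BCL2L1, BCL2L11 and BMF.

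On the anti-apoptotic side, BCL2, BCL2L1 and MCL1 had negative fold changes and BCL2L2 lay near 0, and none of the 4 passed the adjusted threshold in the fit without pairing. BCL2 passed with the replicate number as a block and in the fit without siCtrl replicate 2, MCL1 with the block, and BCL2L1 without siCtrl replicate 2.

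BCL2, the founding survival gene of the family, is on the minus strand of chromosome 18 (chr18:60790579-60987361). It was at 16.1, 8.02 and 20.1 CPM in siCtrl replicates 1 to 3 and at 5.21, 5.29 and 4.35 CPM in siYAP/TAZ replicates 1 to 3. The groups did not overlap, and siCtrl replicate 2 lay nearest to the siYAP/TAZ libraries. The means were 14.7 ± 6.15 and 4.95 ± 0.521 CPM (SD, n = 3 each), so that 33.6% of the siCtrl level was left. The log2 fold change was -1.58 with a standard error of 0.36 (95% interval -2.38 to -0.77, adjusted p = 0.0601). With the replicate number as a block the adjusted p was 0.0136, without siCtrl replicate 2 it was 0.00278, and without both libraries of conflicting labels 0.00564. DESeq2 gave 0.00836 and the fit without a low-count filter 0.0157. It was 0.121 to 0.262 when any library other than siCtrl replicate 2 was left out, and 0.898 in the groups of the titles. Over all 16 alternatives the adjusted p ran from 7.08e-06 to 0.898, with 7 below 0.05. Of these, 2 were fits added after the data were seen (2.69e-05 and 7.08e-06). These values rested on 16 to 80 counts a library.

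BCL2L1 encodes BCL-XL, a survival protein of the mitochondrial membrane (chr20:30252255-30311792, minus strand). It was at 21.3, 14.8 and 16.3 CPM in the siCtrl libraries against 9.07, 8.26 and 12.2 CPM in siYAP/TAZ. No siYAP/TAZ library reached the lowest siCtrl library. The means were 17.5 ± 3.37 and 9.86 ± 2.10 CPM (SD, n = 3 each), with a log2 fold change of -0.82 and a standard error of 0.25 (95% interval -1.39 to -0.25). Its adjusted p was 0.139, and 0.0576 with the replicate block. Without siCtrl replicate 2 it was 0.0473, without any other library 0.247 to 0.356, and without both libraries of conflicting labels 0.102. Over 16 alternatives it ran from 0.0144 to 0.898, and 3 called the gene. Of these, 2 were fits added after the data were seen (0.0144 and 0.0161). The antisense RNA ABALON shares 1735 exonic bases with BCL2L1 and had no row of its own.

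MCL1, a short-lived survival protein, had the highest counts of the members in every library (chr1:150533371-150552214, minus strand). It was at 474, 689 and 718 CPM in siCtrl replicates 1 to 3 and at 316, 509 and 465 CPM in siYAP/TAZ replicates 1 to 3. The groups overlapped, since siCtrl replicate 1 lay below siYAP/TAZ replicate 2, yet each siYAP/TAZ library was below the siCtrl library of its own number. The log2 fold change was -0.54 with a standard error of 0.22 (95% interval -1.03 to -0.05, adjusted p = 0.239). With the replicate block the adjusted p was 0.00980, and MCL1 was then called lower. In the fits without pairing it was 0.128 without both libraries of conflicting labels and 0.198 when siCtrl replicate 2 was dropped. Over 17 alternatives it ran from 2.48e-04 to 0.915, and 3 called the gene. Of these, 2 were fits added after the data were seen (2.48e-04 and 0.0460). With 1395 to 2856 counts a library, its relative counting error was the smallest among the members. The exons of ADAMTSL4, on the opposite strand, share 43 bases with MCL1.

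BCL2L2 encodes BCL-W (chr14:23767999-23780960, plus strand). It was at 14.4, 17.0 and 13.3 CPM in the siCtrl libraries against 17.5, 15.9 and 14.7 CPM in siYAP/TAZ, and the groups overlapped. With a log2 fold change of 0.11, BCL2L2 did not pass the test (95% interval -0.36 to 0.58, adjusted p = 0.831). Its counts are uncertain, because 815 of its exonic bases belong also to the read-through gene BCL2L2-PABPN1 on the same strand. That gene had 407 to 745 counts a library against 48 to 77 for BCL2L2. PABPN1, the other gene of the read-through, had 327 to 646 counts, in every library fewer than the read-through gene. How many read-through counts were reads of PABPN1 rather than of BCL2L2 was not tested. On the opposite strand HOMEZ shares 149 and PPP1R3E 315 exonic bases with it.

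The effectors BAX and BAK1 were among the members with the lowest counts, at 1.23 to 5.53 CPM over all libraries. How reads were assigned to genes is not given, so low counts need not mean few transcripts. BAX, the pore former that moves to mitochondria, had 14, 4 and 10 counts in the siCtrl libraries against 13, 6 and 5 counts in siYAP/TAZ (chr19:49458072-49465055, plus strand). The groups overlapped, at 2.59 ± 1.39 and 2.10 ± 0.799 CPM (SD, n = 3 each), and the two-sided exact permutation p was 0.7, with 0.1 the smallest possible. BAX failed the low-count filter. BAK1, the pore former resident in the mitochondrial membrane, had 12, 10 and 22 counts in the siCtrl libraries against 15, 7 and 16 counts in siYAP/TAZ (chr6:33540324-33548070, minus strand). Its log2 fold change was -0.26 with a standard error of 0.39 (95% interval -1.13 to 0.62, adjusted p = 0.780), and it turned to 0.051 without siCtrl replicate 3. The antisense pseudogene GGNBP1, which overlaps BAK1, had 0 or 1 count a library. At this depth only large changes of either effector could have been detected.

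**Figure D2:**
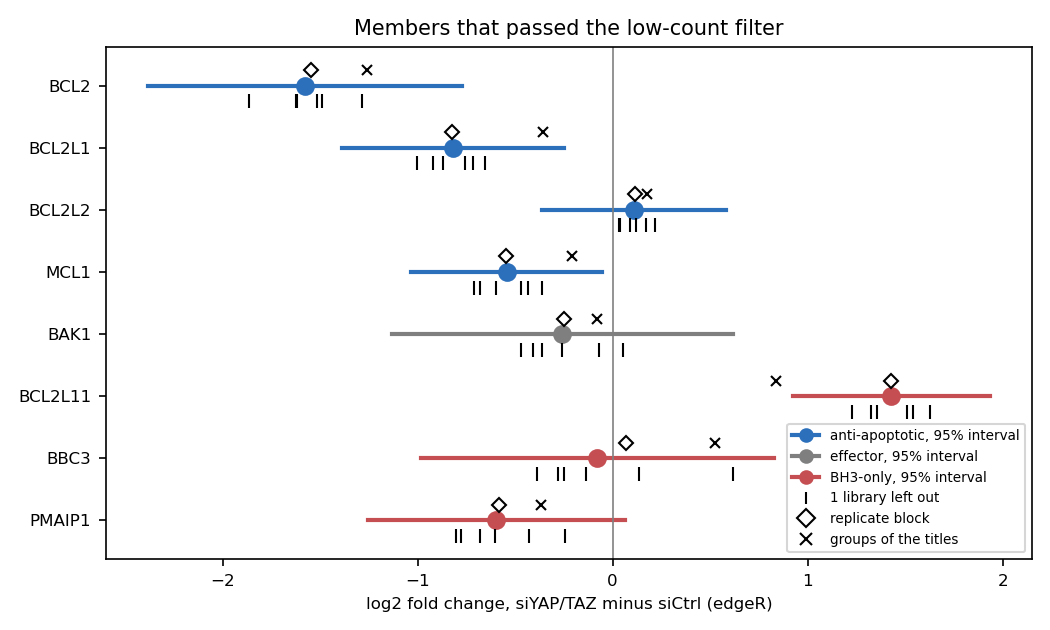
Log2 fold change (siYAP/TAZ minus siCtrl) of the 8 members that passed the low-count filter, with 95% intervals from edgeR. Ticks give the 6 fits that leave out 1 library, diamonds the replicate block and crosses the groups of the titles. BCL2L11 lies at 1.43, BCL2 at -1.58, and the ticks of BBC3 and BAK1 fall on both sides of 0.

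Set against all genes, 1 of the 8 tested members was called higher, where 0.743% of 12510 genes were called higher, and 0 were called lower, where 1.22% were. At an unadjusted p under 0.05, 3 members stood lower (BCL2, BCL2L1 and MCL1) and 1 higher, beside 9.27% and 8.40% of all genes. Of 10 tested, DESeq2 called BCL2 lower and BCL2L11 higher, beside 2.57% and 1.96% of 12933 genes. It also called BMF higher, but BMF passed the mean-count filter of DESeq2 only through its high siYAP/TAZ libraries. The fold changes of 6 members were negative and of 2 positive, with a median of -0.40 beside -0.00093 for all genes tested. Of the same 8, both BCL2 and BCL2L1 lay entirely below siCtrl, as 11.1% of genes did, and BCL2L11 lay entirely above, as 11.0% did. With the replicate block, 2 members were called lower and 1 higher, where 5.44% and 4.66% of all genes were. Without siCtrl replicate 2, and of the same 8, 2 were called lower (BCL2 and BCL2L1) and 1 higher (BCL2L11), beside 6.22% and 6.08% of all genes. Without both libraries of conflicting labels 1 of them was called lower and 1 higher, beside 4.64% and 4.65%. BMF is left out of these counts, since it passed the filter there only through its high siYAP/TAZ libraries. With no low-count filter 1 was called lower and 2 higher, beside 1.56% and 1.34%. Dropping the filter and adding the block gave 3 lower and 2 higher, beside 5.21% and 5.01%. Dropping both the filter and siCtrl replicate 2 gave 3 lower and 3 higher, beside 5.90% and 5.61%.

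The make-up of the BH3-only class differed in the share held by BCL2L11. Of the summed counts of the 4 BH3-only genes, BCL2L11 held 15.5%, 11.1% and 16.7% in siCtrl replicates 1 to 3 and 33.0%, 24.9% and 35.0% in siYAP/TAZ replicates 1 to 3. The lowest siYAP/TAZ share was above the highest siCtrl share. BMF held 0.0452% on average in siCtrl and 4.27% ± 3.33 in siYAP/TAZ. BBC3 was the largest part in every library, at 64.0% ± 15.1 and 53.9% ± 9.84, and PMAIP1 held 21.6% ± 13.3 and 10.8% ± 4.09 (SD, n = 3 each). Among the anti-apoptotic genes MCL1 held 92.7% ± 2.29 in siCtrl and 93.0% ± 1.92 in siYAP/TAZ, a difference smaller than the spread. BCL2 held 2.26% ± 1.03 and 1.12% ± 0.333 of that class. Summed, the anti-apoptotic genes were at 526, 729 and 767 CPM in the siCtrl libraries against 348, 538 and 497 CPM in siYAP/TAZ. The BH3-only genes summed to 109, 228 and 109 CPM in siCtrl and to 146, 182 and 196 CPM in siYAP/TAZ. Both sums overlapped between the groups. Their ratio was 20.8, 31.3 and 14.1 BH3-only counts per 100 anti-apoptotic counts in the siCtrl libraries against 42.0, 33.8 and 39.4 in siYAP/TAZ. The groups did not overlap, but only narrowly, at 31.3 against 33.8, and 11.0% of single genes tested also lay entirely above siCtrl. MCL1 and BBC3, the largest parts of the sums, did not pass the adjusted threshold in the fit without pairing. These shares and ratios are descriptions without a test, and they count reads, not proteins. How reads were assigned to genes is not given, so the shares need not be those of transcripts.

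**Figure D3:**
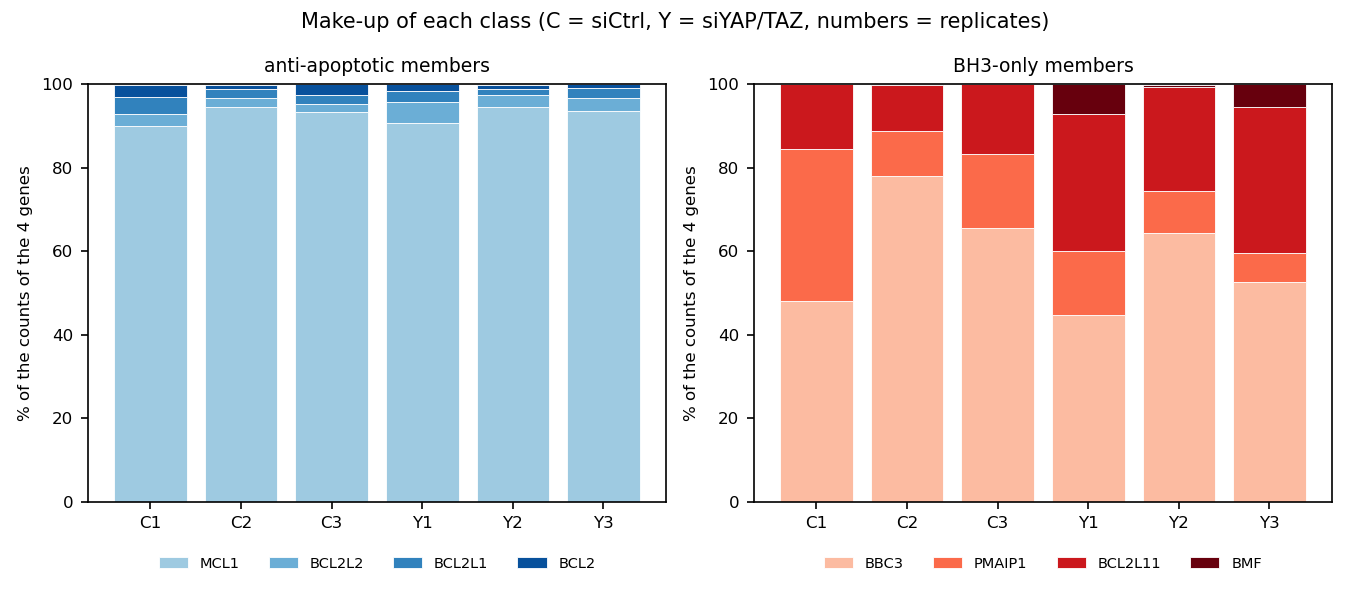
Make-up of the 4 anti-apoptotic members (left) and the 4 BH3-only members (right) in each library, as the percent of the summed counts of the 4 genes. C is siCtrl, Y is siYAP/TAZ and the number is the replicate. MCL1 fills most of the left bars (92.7% and 93.0% on average), and the BCL2L11 part of the right bars is 11.1% to 16.7% in siCtrl and 24.9% to 35.0% in siYAP/TAZ.

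Of the 47 tested genes in 4 further lists of the same machinery, edgeR called 1 higher and 0 lower, beside 0.743% and 1.22% of all genes. At an unadjusted p under 0.05, 5 stood higher and 2 lower, beside 8.40% and 9.27% of all genes. With the replicate block 7 were called higher and 2 lower, beside 4.66% and 5.44% of all genes. Of 13 other BCL2 family genes 8 were tested, with a median log2 fold change of -0.025, and edgeR called 0 of them. At an unadjusted p under 0.05 there were 2, and DESeq2 called 0. The pair with an unadjusted p under 0.05 were BCL2L12 and BNIP3L, a mitophagy receptor. BCL2L12 was at 45.1, 20.7 and 35.7 CPM in the siCtrl libraries against 25.2, 16.9 and 13.9 CPM in siYAP/TAZ (log2 fold change -0.85, adjusted p = 0.203, and 0.0316 with the replicate block). BNIP3L was at 22.1, 55.2 and 31.9 CPM in the siCtrl libraries against 44.9, 86.9 and 66.1 CPM in siYAP/TAZ (0.85, adjusted p = 0.226, and 0.00386 with the block). For both genes the groups overlapped, and each library differed from its same-numbered partner in the direction of the fold change. Without siCtrl replicate 2 both were called (0.0169 and 0.0145). Leaving out any other library gave 0.147 to 0.535 for BCL2L12 and 0.161 to 0.516 for BNIP3L. Over 17 alternatives the adjusted p ran from 1.85e-04 to 0.898 for BCL2L12 and from 1.05e-05 to 0.933 for BNIP3L.

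All 15 genes of the apoptosome, caspase and IAP list were tested, with a median of 0.037, and 1 passed. APAF1, the scaffold of the apoptosome, rose from 24.1, 25.3 and 23.4 CPM in siCtrl to 38.8, 48.9 and 38.3 CPM in siYAP/TAZ, without overlap. Its log2 fold change was 0.79 with a standard error of 0.17 (adjusted p = 0.0492), close to the threshold. The call was lost in 7 of 17 alternatives (range 9.13e-04 to 0.960), among them scaling by library size alone (0.0507) and the groups of the titles. Leaving out any 1 library other than siCtrl replicate 2 also ended it, at 0.0843 to 0.218, and the replicate block gave 0.0122. Without both libraries of conflicting labels it was 0.0413. Named after their values were seen, BIRC5 (survivin, an IAP protein needed for cell division) was called lower and BIRC3 (an IAP protein induced by NF-kB) higher with the block, where the adjusted p was 0.00770 and 0.0109. Without the block it was 0.155 and 0.351, and without siCtrl replicate 2 it was 0.0260 and 0.00231. Leaving out any other library gave 0.108 to 0.434 for BIRC5 and 0.361 to 0.685 for BIRC3. For each gene 5 of 17 alternatives called it (ranges 1.11e-04 to 0.905 and 9.96e-09 to 0.898).

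Of 10 death receptor genes 9 were tested, with a median of -0.020. edgeR called 0 of them, 1 had an unadjusted p under 0.05, and DESeq2 called 0. The smallest p belonged to CFLAR, which encodes the caspase-8 inhibitor c-FLIP, and to RIPK1, a kinase at the receptors. CFLAR was at 87.6, 142 and 94.5 CPM in the siCtrl libraries against 131, 154 and 163 CPM in siYAP/TAZ (log2 fold change 0.47, adjusted p = 0.249, and 0.0499 with the block). RIPK1 was at 19.5, 20.7 and 21.1 CPM and at 26.7, 27.1 and 24.2 CPM (0.35, adjusted p = 0.327). RIPK1 did not overlap between the groups and CFLAR did. CFLAR was called in 5 of 17 alternatives (0.000986 to 0.898) and RIPK1 in 0 of 17. For CFLAR the adjusted p was 0.0106 when siCtrl replicate 2 was dropped and 0.242 to 0.572 when any other library was.

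Of 17 regulators and partners of the family 15 were tested, with a median of 0.0024. edgeR called 0 of these, 2 had an unadjusted p under 0.05, and DESeq2 called FOXO1. FOXO1, a transcription factor that is known to act on BCL2L11, was at 130, 318 and 171 CPM in the siCtrl libraries against 333, 408 and 441 CPM in siYAP/TAZ. Its lowest siYAP/TAZ library stood just above siCtrl replicate 2. The log2 fold change was 0.93 with a standard error of 0.29 (adjusted p = 0.139). With the replicate block the adjusted p was 0.00672, and without siCtrl replicate 2 it was 0.00142. Leaving out any other library gave 0.161 to 0.425. Over 17 alternatives it ran from 2.96e-09, in a fit added after the data were seen, to 0.898, with 7 called. TP63, the p53 relative that marks basal epithelium, was at 40.8, 43.5 and 62.8 CPM in the siCtrl libraries against 61.4, 85.3 and 74.5 CPM in siYAP/TAZ (0.58, adjusted p = 0.177, and 0.0379 with the block). FOXO3, named after its values were seen, had an adjusted p of 0.303, which the block lowered to 0.0196 and leaving out siCtrl replicate 2 to 0.0109. Leaving out any other library gave 0.257 to 0.605. TP63 was called in 2 of 17 alternatives (0.00414 to 0.970, with 0.292 without both libraries of conflicting labels and 0.144 without siCtrl replicate 2) and FOXO3 in 5 (3.25e-05 to 0.898).

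**Figure D4:**
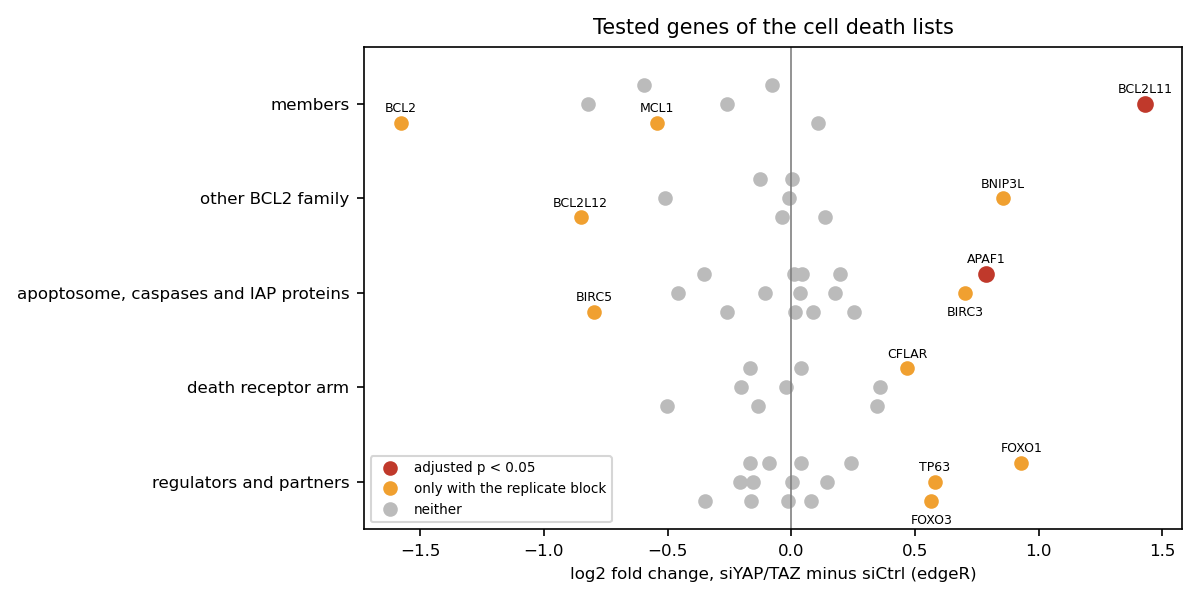
Log2 fold change (siYAP/TAZ minus siCtrl) of every tested gene of the 10 members and the 4 cell death lists, 1 point a gene. Red points passed an adjusted p of 0.05, orange points passed with the replicate block but not without it. BCL2L11 (1.43) and APAF1 (0.79) are the red points.

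Among the genes whose levels followed BCL2L11 most closely over the 6 libraries, by Pearson's r of log2(CPM + 0.5), were PERP (0.992) and NCSTN (0.992). The 6 points include the difference between the groups, so these values are a description. PERP, a desmosome-associated membrane protein of stratified epithelia, was at 348, 515 and 433 CPM in the siCtrl libraries against 892, 898 and 1169 CPM in siYAP/TAZ. Its log2 fold change was 1.19 with a standard error of 0.19 (adjusted p = 0.0168), and the groups did not overlap. The call of PERP was lost when siCtrl replicate 1 (0.0561) or 3 (0.114) was dropped, and likewise for siYAP/TAZ replicate 2 (0.0505) or 3 (0.110), and over 17 alternatives its adjusted p ran from 5.72e-14 to 0.898. Without both libraries of conflicting labels it was 0.00206. NCSTN, a subunit of gamma-secretase, differed by 0.60 (adjusted p = 0.100). It was called with the replicate block (0.0435), without siCtrl replicate 2 (0.0221) and without both libraries of conflicting labels (0.0385). Leaving out any other library gave 0.168 to 0.357. Its adjusted p ran from 0.0132 to 0.898 over 17 alternatives.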

How the data were processed

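Raw counts per gene were used as the authors deposited them for 6 QuantSeq FWD 3′-end libraries. The submitters' processing notes name cutadapt 4.2, Bowtie2 2.3.5.1 and hg19. The counting tool, the annotation and the use of strand for these libraries are not given in the sources used here. The labels name no molecular identifiers, so intervals on counts cover counting error only and not amplification. Gene IDs were matched to symbols in a RefSeq table (23308 of 23459 IDs, 99.7% of counts), and hg19 coordinates came from GENCODE.

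Group differences were tested with edgeR 4.0.16 in R 4.3.3 (TMM, filterByExpr, quasi-likelihood F test, Benjamini-Hochberg over all genes tested, threshold 0.05), fitting 12510 genes. CPM values are TMM-normalised. The script was tested on simulated data. DESeq2 1.42.0, other scalings and filters, the titles' groups and leaving out libraries were alternatives. Deviations from the group means correlated at 0.414, 0.344 and 0.130 between same-numbered libraries of the groups. The edgeR fit behind results given without a named setting nevertheless had no pairing. The fit with a replicate block, an alternative, treated the numbers, taken from the labels, as pairs. It is given where it changed the call of a named gene.

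The members and lists were chosen with earlier results of these data known. The named genes were the 10 members, the targeted genes, the called genes of each list (or the 2 with the smallest p), the 3 genes most like each called member (1 of them is not reported here), and genes that overlap a member.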

Additional observations from a re-analysis of the deposited data

How the results depend on the processing

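The counts of calls depended on the fit, and the causes were not tested unless stated. Over all genes, 152 were called lower and 93 higher. DESeq2 called 333 and 254, the fit without a low-count filter 299 and 257, the replicate block 680 and 583, and the fit without both libraries of conflicting labels 591 and 592. Leaving out 1 library gave 10 to 798 lower and 6 to 781 higher, with both highest values without siCtrl replicate 2. In the groups of the titles edgeR called 0 in either direction (242 and 222 at an unadjusted p under 0.05). Among the members, 0 were called lower and 1 higher, beside 1.22% and 0.743% of all genes. The lower count was 1 with DESeq2 (2.57% of all genes), without the filter (1.56%) and without both conflicting libraries (4.64%). It was 2 with the block (5.44%) and 0 to 2 with 1 library left out, where 2 came without siCtrl replicate 2 (6.22%). The higher count was 2 with DESeq2 and without the filter (BCL2L11 and BMF), beside 1.96% and 1.34% of all genes. BMF passed the mean-count filter of DESeq2 only through its high siYAP/TAZ libraries. Without both conflicting libraries BCL2L11 was called higher, beside 4.65% of all genes. BMF was too, but it passed the low-count filter there only through its high siYAP/TAZ libraries. In the groups of the titles the higher count was 0 (0 at an unadjusted p under 0.05). With 1 library left out it was 0 to 2, where 2 included BMF in the same way. Fits added after the data were seen, which dropped the filter and either added the block or left out siCtrl replicate 2, called 3 lower in each case and 2 and 3 higher. Of all genes, 5.21% were called lower and 5.01% higher with the block, and 5.90% and 5.61% without siCtrl replicate 2. Of the listed pathway genes, 0 were called lower and 1 higher, beside 1.22% and 0.743% of all genes. The lower count was 2 with the block (5.44% of all genes) and without both conflicting libraries (4.64%). With 1 library left out it was 0 to 3, where 3 came without siCtrl replicate 2 (6.22%). The higher count was 2 with DESeq2 (1.96%) and without the filter (1.34%), and 7 with the block (4.66%). It was 0 in the groups of the titles and 6 without both conflicting libraries (4.65%). With library size alone it was 0, where 92 of 12510 genes were called. At an unadjusted p under 0.05 it was 6 in that fit, where 998 of 12510 genes stood higher. With 1 library left out it was 0 to 6, where 6 came without siCtrl replicate 2 (6.08%).

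The log2 fold change of BBC3 turned to 0.067 with the replicate block, 0.53 in the groups of the titles and 0.44 without both conflicting libraries, and ran from -0.39 to 0.62 with 1 library left out. That of BAK1 ran from -0.47 to 0.051 with 1 library left out, and that of TP63 turned to -0.070 in the groups of the titles. Beyond the calls given in the report, the block changed none among the members. BAX, BAK1 and BMF had at most 45 counts in any library.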
